A study of Mus musculus with 6 samples.

Results

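A small set of the mouse genome carried more DNA methylation in advanced pluripotent stem cells (ASCs) than in epiblast stem cells (EpiSCs). It was found by dividing chromosomes 1 to 19 into 2 kb tiles and keeping those with 80 or fewer CpG positions, at least 40 summed reads in each of the 6 libraries and a mean ASC level at least 20 percentage points above the mean EpiSC level. A CpG is a cytosine followed by guanine, the dinucleotide at which mammalian DNA is mostly methylated, and the level of a tile is its methylated reads as a percentage of all its reads. The rule gave 442 member tiles among 432377 eligible tiles, meaning those that met its other conditions. Because these levels chose the members, the difference between ASCs and EpiSCs is given below as a description, and so is any low EpiSC level in a member.

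Whole-genome bisulfite sequencing was done on 3 kinds of pluripotent cells, with 2 libraries each, all labelled wild type and of the strain 129S2/SvPasCrl. The methods of the study describe embryos from 129/sv mothers and reporter males of a mixed background, so the strain of each library was not fixed by the label alone. ASCs were derived from AFSCs (blastocyst lines kept in Activin A and bFGF) and kept in ABCL medium, which contains Activin A, BMP4, the Wnt pathway agonist CHIR99021 and leukemia inhibitory factor (LIF). Embryonic stem cells (ESCs) were kept in 2i/LIF, which holds them in a naive state, and EpiSCs are primed and stand for the postimplantation epiblast. The cells were female according to the study. The 2 libraries of a group are called biological replicates in the labels, but neither the number of lines nor their passage is given there. The p-values rest on counting error and on the spread between these libraries only. That spread is mostly taken from all tiles together (144.66 prior degrees of freedom, against 3 from the tile itself). Replicates that disagree in 1 tile therefore weigh little in its p-value. The files held between 63803799 and 74925271 CpG reads per library, a mean coverage of 2.96 to 3.46 reads per listed CpG. In the member tiles the library with the fewest reads had a median of 92. At that depth a level of 50% has a 95% Wilson interval of 39.99% to 60.01%, and at 40 reads one of 35.2% to 64.8%, for counting error only.

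DNA methylation is laid down by DNMT3A and DNMT3B and copied at cell division by DNMT1, and it is low in naive cells kept in 2i and high in the epiblast after implantation. CpG-dense promoters, and the broad regions around genes of developmental transcription factors, are usually kept free of methylation in pluripotent cells, where Polycomb proteins and TET enzymes occupy many of them. A level between 0% and 100% in a bulk library can come from partly methylated DNA in every cell or from a mixture of cells, and these cannot be told apart here.

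Sequences are shown for 7 members named below, because they let the spacing of CpG sites be seen in 6 tiles beside or inside developmental genes and in the tile with the largest difference, nearest to Mup8. Each is the 200-base window of its tile with the most CpG sites outside annotated exons, read from the GRCm38 reference genome on the plus strand, with every CpG in capitals.
Smad1, chr8:79384451-79384650: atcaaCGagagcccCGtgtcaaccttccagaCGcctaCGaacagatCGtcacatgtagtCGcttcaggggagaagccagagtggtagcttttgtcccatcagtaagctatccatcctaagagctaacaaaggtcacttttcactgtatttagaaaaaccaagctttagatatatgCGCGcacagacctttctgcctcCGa
Wnt11, chr7:98840541-98840740: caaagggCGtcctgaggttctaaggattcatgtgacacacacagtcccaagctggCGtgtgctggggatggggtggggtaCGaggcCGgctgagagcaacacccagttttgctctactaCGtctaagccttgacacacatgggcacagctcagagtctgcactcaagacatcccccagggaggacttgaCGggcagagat
Pdx1, chr5:147272221-147272420: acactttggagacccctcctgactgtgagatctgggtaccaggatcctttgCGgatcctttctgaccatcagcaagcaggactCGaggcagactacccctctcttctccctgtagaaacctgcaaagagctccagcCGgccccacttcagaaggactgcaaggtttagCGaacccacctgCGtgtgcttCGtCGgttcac
Cdx2, chr5:147309421-147309620: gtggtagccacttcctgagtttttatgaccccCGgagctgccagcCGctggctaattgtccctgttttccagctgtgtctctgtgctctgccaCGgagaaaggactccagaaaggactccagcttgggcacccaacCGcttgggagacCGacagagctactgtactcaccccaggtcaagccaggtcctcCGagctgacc
Pax3, chr1:78199131-78199330: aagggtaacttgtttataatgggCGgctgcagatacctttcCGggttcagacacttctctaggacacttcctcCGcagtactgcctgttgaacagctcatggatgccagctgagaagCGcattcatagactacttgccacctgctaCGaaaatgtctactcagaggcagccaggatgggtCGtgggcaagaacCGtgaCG
Hlx, chr1:184717321-184717520: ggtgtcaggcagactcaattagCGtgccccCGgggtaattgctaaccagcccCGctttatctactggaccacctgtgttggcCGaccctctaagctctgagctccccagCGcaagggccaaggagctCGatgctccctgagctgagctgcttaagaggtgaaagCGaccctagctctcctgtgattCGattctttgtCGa
Mup8, chr4:60192671-60192870: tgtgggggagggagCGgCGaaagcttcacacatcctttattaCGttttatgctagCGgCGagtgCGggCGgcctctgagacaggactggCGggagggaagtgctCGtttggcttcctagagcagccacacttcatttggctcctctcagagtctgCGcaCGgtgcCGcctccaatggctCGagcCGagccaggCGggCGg

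The window at Smad1 held 9 CpG sites, and 88.1% of 59 reads were methylated in ASCs, 15.5% of 71 in ESCs and 2.5% of 40 in EpiSCs, with both libraries of a group summed. At Wnt11 the 6 sites of the window read 48.2% in ASCs, 1.94% in EpiSCs and 22.03% in ESCs. The window at Pax3, with 8 sites, read 60.7%, 18.97% and 4.50% in ASCs, ESCs and EpiSCs. Apart from the window at Mup8, which held 16 sites, these stretches held 6 to 9 CpG sites in 200 bases.

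Members sat at intermediate levels in ASCs and at low levels in ESCs and, for the most part, in EpiSCs. The ASC libraries had medians of 55.1% and 55.3%, against 15.8% and 16.2% in the ESC libraries and 23.1% and 21.8% in the EpiSC libraries. Over eligible tiles the median was 69.3% ± 0.13 in ASCs, 92.2% ± 0.018 in EpiSCs and 19.8% ± 0.26 in ESCs (SD, n = 2). Members were therefore below the median of eligible tiles in all 3 groups, by far the most in EpiSCs, which is the group the rule selected on. An ASC level over 80% was seen in 15 members, and 24 members had an ASC level under 30%. In EpiSCs 84 members were under 10%, against 0.668% of eligible tiles. The median difference between ASCs and EpiSCs was 26.8 points in the members and -21.1 points in eligible tiles, and the largest was 64.5. Replicates of 1 group differed in a member by a median of 4.98 points in ASCs, 3.68 in ESCs and 4.23 in EpiSCs.

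**Figure D1:**
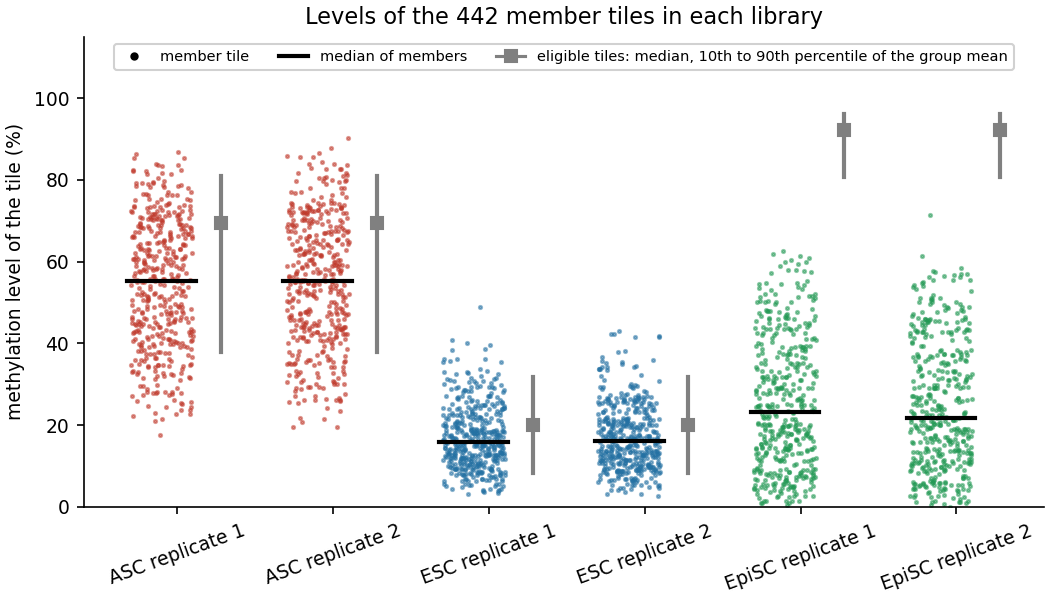
Methylation level in percent of the 442 member tiles in each of the 6 libraries (points, with the median as a black line), beside the median and the 10th to 90th percentile of the group mean over eligible tiles (grey). The members' medians lie at 55.1% and 55.3% in ASCs and at 23.1% and 21.8% in EpiSCs, where eligible tiles have a median of 92.2%.

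In a quasi-binomial model with limma-moderated dispersion fitted on 445422 tiles, a tile was called at an adjusted p under 0.05 and a difference of at least 20 points. All 442 members were called higher in ASCs than in EpiSCs, against 0.1% of all tiles tested, which the rule had fixed apart from the p-value. At the threshold, the 3 members just inside, nearest to Prex1, Hoxa13 and Lmx1b, differed by 20.021, 20.014 and 20.004 points, and the 3 tiles just outside, nearest to Tax1bp1, Runx3 and Thbs2, by 19.997, 19.984 and 19.980.

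To see whether the difference held in reads that had not chosen the tiles, tiles were chosen on replicate 1 of ASCs and EpiSCs alone and examined in replicate 2. This gave 501 tiles, whose median difference was 26.9 points in replicate 1 and 24.2 points in replicate 2. ASCs were higher in replicate 2 at 466 of them (93.0%), and by 20 points or more at 309. Fitted without the 2 libraries used to choose, the limma-moderated model called 297 of the 501 (59.3%) higher in ASCs, against 0.119% of all tiles. With the roles exchanged, 561 tiles were chosen, their median difference went from 27.0 to 21.6 points, and 304 (54.2%) were called, against 0.106% of all tiles. In that exchange ASCs were higher in replicate 1 at 502 of the 561 (89.5%), and by 20 points or more at 309. In these model fits the single ASC and EpiSC libraries were assumed to vary like the ESC pair. Since the number of lines is not given, the comparison shows only that the difference repeats between these libraries. Whether it holds in other lines was not tested. The plot of both replicates shows the tiles near the threshold spreading most widely in the unused replicate, with 35 at or under 0.

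**Figure D2:**
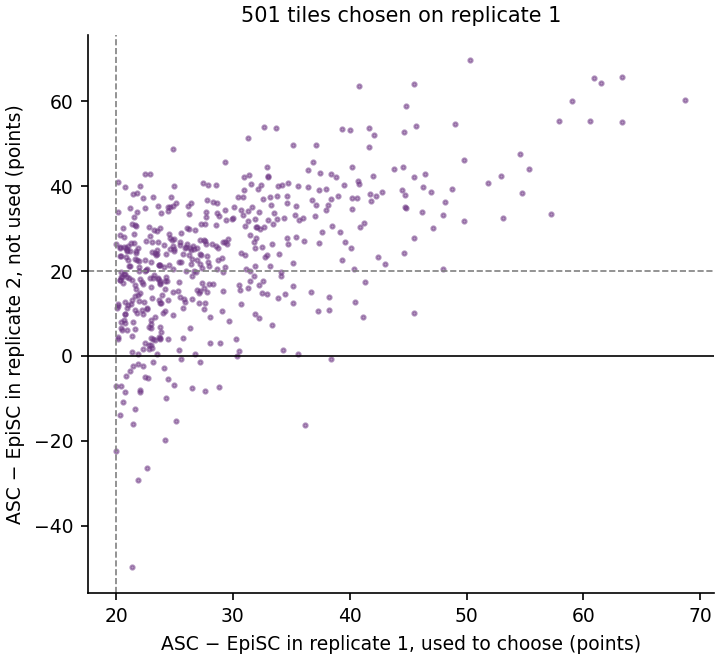
Difference between ASCs and EpiSCs in percentage points for the 501 tiles chosen on replicate 1 (x axis, used to choose) and in replicate 2 (y axis, not used); dashed lines mark 20 points and the solid line 0. In replicate 2, 466 points lie above 0 and 309 at or above 20.

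ESCs separated the members into kinds, since the ESC libraries entered the rule through the read minimum only. In 228 members (51.6%) the EpiSC mean was within 10 points of the ESC mean, and their medians were 44.6% for ASCs, 13.9% for ESCs and 14.98% for EpiSCs. In 186 members (42.1%) EpiSCs were more than 10 points above ESCs, and these had medians of 66.7%, 17.5% and 39.6%. The other 28 members (6.33%) were more than 10 points lower in EpiSCs than in ESCs, with medians of 48.0%, 20.6% and 5.13%. There were 31 such tiles among all eligible tiles, so 28 of the 31 were members. The limma-moderated model called 85 members (19.2%) higher in EpiSCs than in ESCs, where 96.5% of all tiles were called, and 3 members lower, where 0.000898% were called. Adjusted p alone put 190 members higher and 63 lower, against 99.4% and 0.0579% of all tiles. Low EpiSC levels were part of the choice, so these counts are a description and nothing is read from them.

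ASCs were called higher than ESCs in 412 members (93.2%), close to the 91.1% of all tiles, with a median difference of 38.0 points against 46.8 in eligible tiles. Both ASC libraries were above both ESC libraries in 439 members (99.3%), against 99.2% of eligible tiles. ASCs had the lower mean in 1 member, a tile at Lhx9.

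**Figure D3:**
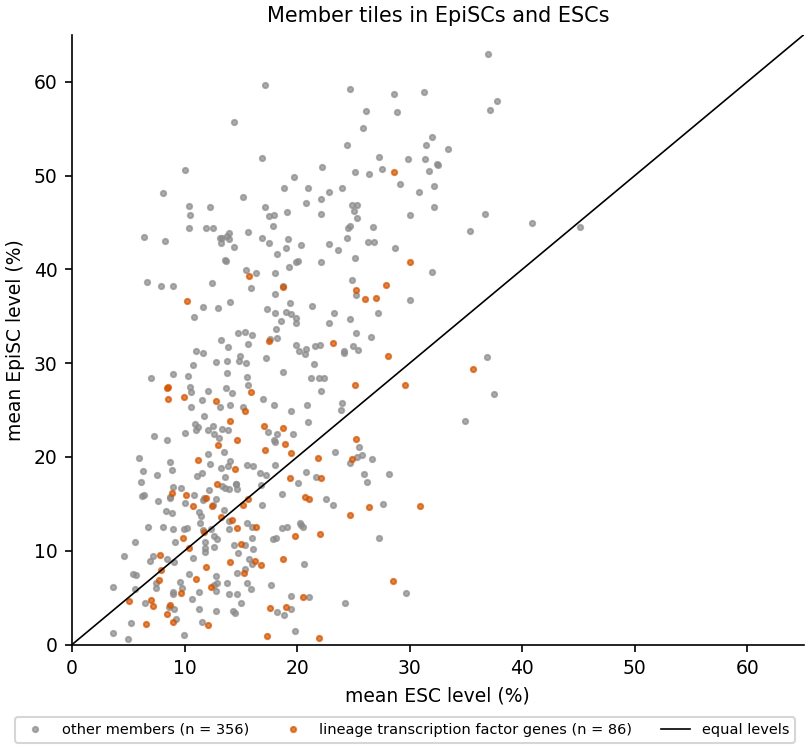
Mean EpiSC level (y axis, percent) against mean ESC level (x axis, percent) of the 442 members, with the 86 at lineage transcription factor genes in orange and the line of equal levels in black. Below the line, where EpiSCs were lower than ESCs, lie 138 members, among them 45 of the 86. Of eligible tiles 0.101% lie there, and the rule used the EpiSC levels.

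Most members had no other member next to them. This is partly set by the rule, since a tile with too few reads or too many CpG positions could not extend a run. How many runs ended at such a tile was not counted. The members formed 379 runs of adjacent tiles, of which 326 were single tiles, 45 were pairs, 6 held 3 tiles and 2 held 4. There were 488 eligible tiles next to a member that were not members themselves, with CpG-dense tiles left out. Of these 122 (25%) were higher in ASCs at an adjusted p under 0.05 in the limma-moderated model. The share was 0.223% over all eligible tiles that were not members. A difference of 20 points was not asked of these tiles, since eligible tiles that reach it are members. Lower in ASCs at the same adjusted p were 209 (42.8%), against 91.1% of all eligible tiles that were not members. The median difference of the 488 tiles was -5.42 points. Tiles 2 steps away had a median difference of -14.7 points, with 58 of 445 (13.0%) higher and 293 (65.8%) lower at that adjusted p. With distance from a member, tiles thus moved toward the genome's usual order, in which EpiSCs are the higher group. Within the members, 287 had at least 20 reads per library in the first and in the last 1 kb. Of these 240 were higher in ASCs in both parts, and 128 by 20 points or more in both, which is a description, since the same reads chose the tiles.

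In the mean profile around members, ASCs peaked in the tile and EpiSCs dipped there, which the rule selected for. ESCs, whose levels the rule did not use, were also highest in the tile. The rule kept CpG-dense tiles out of the members but not out of these flanks. Lower levels in the flanks can therefore follow in part from the rule. Eligible tiles next to a member, which are not CpG-dense, had medians of 59.8% in ASCs and 15.9% in ESCs. The members had 55.1% and 55.3% in ASCs, and 15.8% and 16.2% in ESCs. Among eligible tiles neither group thus showed a clear peak in the members. Bins in the tile held all 442 members, and bins outside it 379 to 429. In the 500 bp bin just before the centre levels were 53.5% and 55.1% in ASCs against 17.03% and 17.1% in ESCs, and 21.2% and 21.1% in EpiSCs. In the bin centred 3750 bp before the centre, levels were 31.6% and 31.8% in ASCs against 32.5% and 31.7% in EpiSCs, which overlapped, and 9.75% and 10.03% in ESCs. In the bin 3750 bp after it both ASC libraries, at 31.8% and 31.6%, were still above the EpiSC libraries, at 30.1% and 29.2%, while 7750 bp after it EpiSCs were higher, at 40.2% and 38.9% against 33.0% and 33.8%. Around members of lineage transcription factor genes the near flanks were lower than at the other members, and beyond them levels rose with distance. EpiSCs did not dip in the tile at these members. They read 16.6% and 16.0% in the bin just before the centre, against 7.26% and 8.02% in the bin centred 1750 bp before it. There the bin centred 2250 bp after the centre read 16.0% and 14.7% in ASCs against 5.44% and 5.41% in ESCs, and 12.1% and 10.7% in EpiSCs. The bin 9750 bp before the centre read 31.3% and 29.5% in ASCs against 27.5% and 27.9% in EpiSCs. At the other members the bin 2250 bp after the centre read 35.9% and 35.9% in ASCs against 37.8% and 38.4% in EpiSCs. The profile pools reads, so bins with many CpG sites weigh most.

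**Figure D4:**
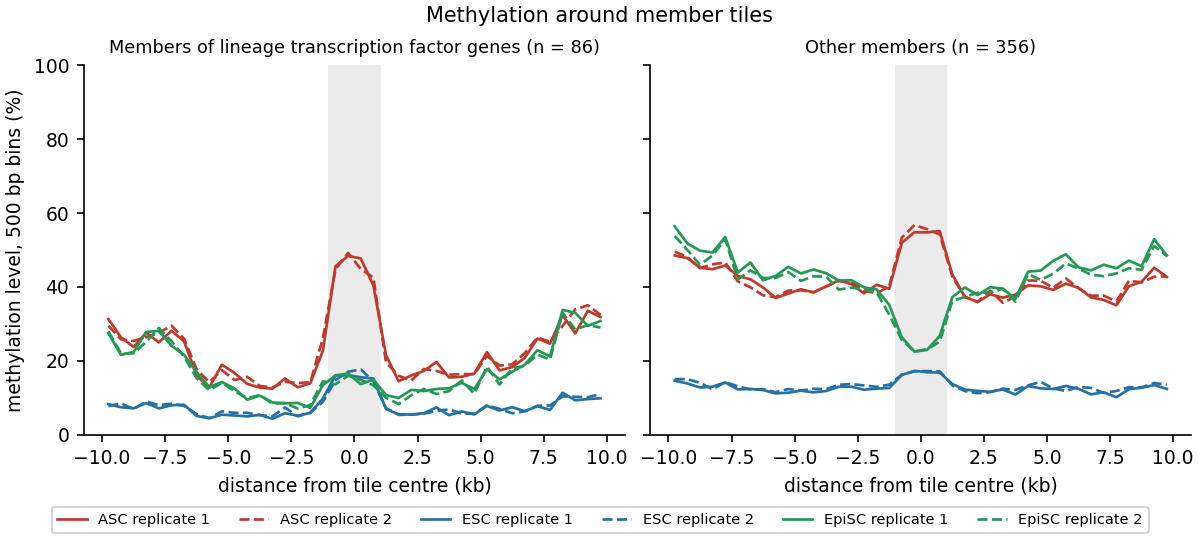
Pooled methylation level in percent in 500 bp bins within 10 kb of the centre of member tiles, per library, for the 86 members of lineage transcription factor genes (left) and the 356 other members (right); the grey band marks the tile itself, which the rule used, and other members were left out of the flanks. At the tile centre ASCs stand above both other groups, and on the left the EpiSC lines lie near the ESC lines.

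The members had more CpG sites than most eligible tiles and lay nearer to gene starts. They held a median of 31 CpG sites against 23 in eligible tiles, their GC content was 47.8% against 45.8%, and the median distance to a protein-coding start was 10060 bp against 34306 bp. Of all members, 47 (10.6%) lay within 1 kb of such a start, 72 (16.3%) overlapped an exon further in, 117 (26.5%) lay in introns and 206 (46.6%) were intergenic. The same classes held 5.04%, 22.5%, 30.7% and 41.8% of eligible tiles. A CpG-dense tile, with over 80 CpG positions, lay within 2 tiles of 140 members (31.7%), against 5.17% of eligible tiles. These are descriptions without a test. The rule favours tiles low in EpiSCs, and eligible tiles with an EpiSC level under 30%, members included, held a median of 56 CpG sites. Members thus had more CpG sites than eligible tiles as a whole, but fewer than the tiles low in EpiSCs. GC content and position were not compared with the tiles low in EpiSCs. Split by CpG density, the ASC libraries had medians of 66.1% and 63.1% in members with 11 to 20 CpG sites, against 70.1% and 70.3% in eligible tiles of that density. At 21 to 40 sites, the class of 262 members, ASC medians were 57.4% and 58.2% against 69.4% and 69.6%, and at 41 to 80 sites they were 41.3% and 43.8% against 42.7% and 42.9%. EpiSCs, on which the rule selected, had medians of 25% and 24.1% in members with 21 to 40 sites, against 92.5% in each library over eligible tiles.

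Short motifs were counted in the tiles on both strands, as letters in the reference genome and not as bound sites. AGGGGGC, the core of the CTCF motif, was found in 34.8% of members and 21.6% of eligible tiles, and in 32.8% against 22.3% among tiles with 21 to 40 CpG sites. GGCGCC, a GC-rich element of SMAD1 and SMAD5, the transducers of BMP, was found in 19.9% against 8.89%, and in 15.3% against 9.31% in that class. Within the class members still held more CpG sites (median 29 against 26), and GC content was not matched, so base composition was not controlled. AGGTGTGA, a T-box site, was found in 13.1% against 9.71%. CTTTGAT of TCF and LEF factors (27.1% against 28.4%), AGATAAG of GATA factors (22.9% against 23.2%) and ATGCAAAT of POU factors (11.3% against 10.4%) were about as frequent as in eligible tiles. CAGCAGG of ZIC factors (50.2% against 46.2%) and the E-box CAGCTG (68.8% against 64.9%) were slightly more frequent, and GCGCATGC of NRF1 (3.17% against 3.92%) slightly less. GTCTAGAC of SMAD3 and SMAD4 was found in 7 members (1.58% against 1.87%), and in 2.29% against 1.87% among tiles with 21 to 40 CpG sites, so its direction turned.

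Genes of lineage transcription factors held many of the members. A list of 240 such genes, which direct the formation of organs and body regions, accounted for 86 members (19.5%) in gene bodies or within 5 kb upstream, while it covered 0.572% of eligible tiles. This is 34.7 members per 1000 eligible tiles of the list against 1.02 per 1000 of all eligible tiles, and 52 of the 240 genes held at least 1 member. With tiles assigned to the gene of the nearest start, the rate of the list was 13.9 per 1000. Because the list was chosen with earlier results of these data known, both rates describe these libraries only. The median difference of the 86 members was 29.5 points, that of all eligible tiles of the list -17.1 points. Their median levels were 48.2% and 47.0% in ASCs against 14.7% and 16.5% in ESCs, and 14.7% and 14.4% in EpiSCs. EpiSCs were lower than ESCs in 45 of them (52.3%), against 93 of the 356 other members (26.1%) and 0.101% of eligible tiles. The rule used the EpiSC levels, which were also lower in the 86 than in the other members, so these shares are a description. A CpG-dense tile lay within 2 tiles of 62.8% of the 86 and of 24.2% of the others.

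The list is rich in tiles with little methylation in EpiSCs. An EpiSC level under 30% was found in 436 of its 2475 eligible tiles (17.6%), against 2.11% of the other eligible tiles. Of those 436 tiles 74 (17.0%) were members, against 2.23% of the 9056 such tiles elsewhere. Most tiles that were low in EpiSCs were thus also low in ASCs, with an ASC level under 30% in 78.4% of those in the list and 95.3% of the others.

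At the starts of these genes median levels were low, though some start tiles were higher. For the 52 genes with a member, the tile at the annotated start was itself a member in 7. Of the 45 others, 28 had over 80 CpG positions and so could not be members whatever their levels. Over these 45 tiles ASCs had a median of 3.94%, ESCs of 2.22% and EpiSCs of 3.09%, and the highest EpiSC level was 25.6%. The median difference between ASCs and EpiSCs was 0.26 points. At an adjusted p under 0.05 the limma-moderated model put 12 (26.7%) higher and 9 (20%) lower in ASCs, against 0.374% and 90.4% of all tiles. For the 183 tested start tiles of the 188 listed genes without a member, the medians were 4.79%, 2.19% and 10.01%, and EpiSCs reached 95.7%. Of these 16 (8.74%) were higher and 98 (53.6%) lower in ASCs at the same adjusted p, where all tiles gave 0.374% and 90.4%. Lower by 20 points or more at that adjusted p were 37 of the 183 (20.2%), against 54.3% of eligible tiles that were not members. Over 80 CpG positions were held by 117 of the 183, and 4 lay on the X chromosome, which the rule did not cover. All 4 were among the 37.

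Gata4, which encodes a zinc finger factor of heart and endoderm formation, held the most members, 8 tiles between 63242001 and 63272000 on chromosome 14 in or just upstream of the gene. Their ASC means ranged from 33.3% to 77.0%, their ESC means from 10.4% to 30.03% and their EpiSC means from 7.59% to 50.4%. The tile with the largest difference at Gata4, from 63266001 to 63268000 with 42 CpG sites, read 53.6% and 59.0% in ASCs against 16.0% and 14.6% in ESCs, and 8.93% and 6.25% in EpiSCs, with 82 to 112 reads per library. Both ASC libraries were far above the other 4, and both EpiSC libraries were the lowest. The next tile, from 63268001 to 63270000, had 85 CpG positions and so fell outside the rule, and it read 26.8% and 18.6% in ASCs against 5.80% and 8.29% in ESCs, and 1.32% and 2.09% in EpiSCs. In 1 kb windows the levels at Gata4 alternated, and 26.5 kb into the gene model a window with 63 CpG sites read at most 1.49% in every library.

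Pdx1, the master regulator of pancreas development, was covered by a run of 3 members from 147268001 to 147274000 on chromosome 5, from its start through an intron. In the intronic tile from 147272001 levels were 70.5% and 77.9% in ASCs against 26.1% and 26.7% in ESCs, and 11.5% and 17.9% in EpiSCs, with 134 to 173 reads. The groups did not overlap, and both EpiSC libraries were the lowest. The tile before it, which holds most of the CpG sites at the start (78), read 25.4% and 25.4% in ASCs against 4.17% and 4.31% in EpiSCs. Cdx2, a factor of trophectoderm and of the posterior body axis that lies on the same chromosome, had a member 731 bp from a start, with 63.03% and 57.7% in ASCs against 21.6% and 17.2% in ESCs, and 23.5% and 17.4% in EpiSCs. There ESCs and EpiSCs overlapped.

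A run of 4 tiles, the greatest length seen, lay from 41752001 to 41760000 on chromosome 5, with its near end 4501 bp from the start of Nkx3-2, a homeobox gene of the skeleton. Its outermost tile read 60.7% and 79.7% in ASCs against 44.2% and 50% in EpiSCs, and without ASC replicate 2 the difference was 13.6 points, under the 20 of the rule.

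**Figure D5:**
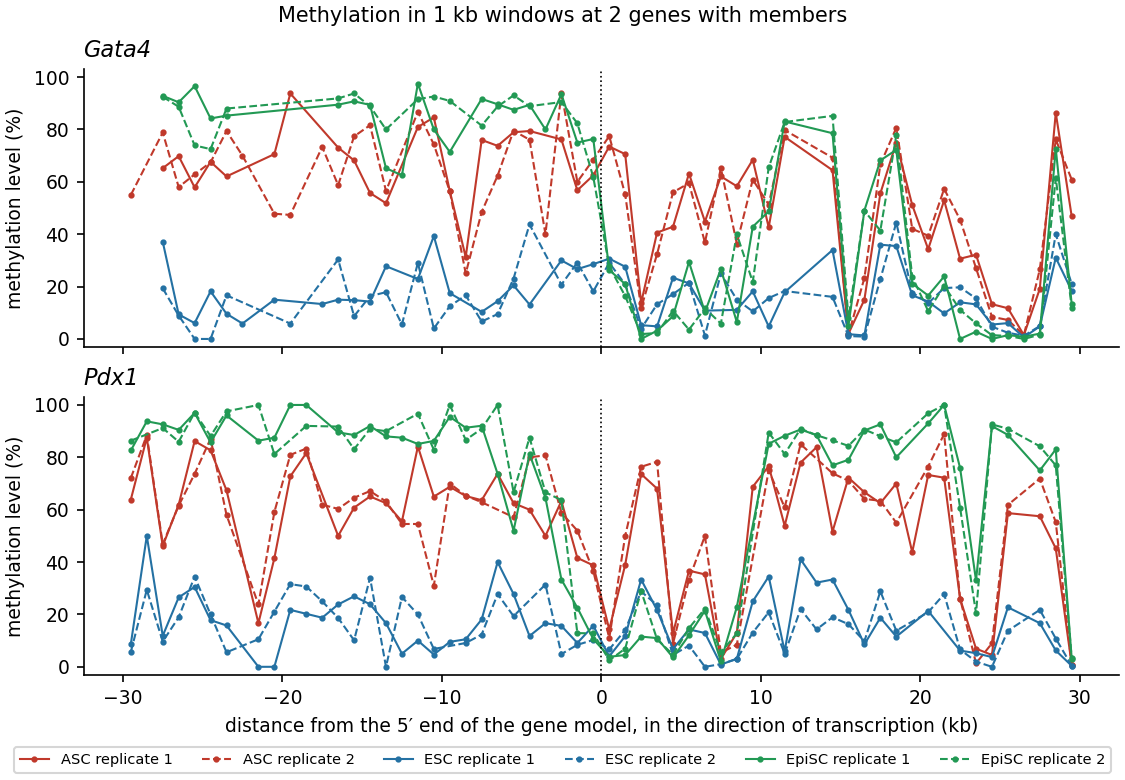
Methylation level in percent in 1 kb windows with at least 15 reads, by distance in kb from the 5′ end of the gene model in the direction of transcription (dotted line), at Gata4 and Pdx1 in the 6 libraries. More than 10 kb upstream of the dotted line EpiSCs (green) are the highest group in most windows. In most windows just after it ASCs (red) stand above both other groups, with smaller gaps in CpG-dense windows, where all groups are low.

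Hox genes, which pattern the body axis, held 12 members at 11 of 39 genes, with differences of 20.7 to 37.8 points. Median levels of the Hox members were 44.6% and 45.8% in ASCs against 13.0% and 14.9% in ESCs, and 19.9% and 18.8% in EpiSCs. Hoxa10, a gene of the reproductive tract, had a tile near its start with 51.5% and 47.7% in ASCs against 20.1% and 23.9% in ESCs, and 13.1% and 10.6% in EpiSCs. Pax genes held 12 members as well, at 4 of 9 genes (Pax3, Pax6, Pax7 and Pax8). EpiSCs were below ESCs in 9 of the 12, a description, since the rule used the EpiSC levels. Pax3, a regulator of neural crest and muscle, had a member 867 bp from its start that read 51.9% and 47.3% in ASCs against 17.9% and 23.2% in ESCs, and 7.32% and 2.78% in EpiSCs. Gata genes held 14 members at 3 of 6 genes, 5 of them at Gata3, a factor of T cells and trophoblast. Nkx genes held 5 members among 51 eligible tiles (98.04 per 1000), Tbx genes 6 among 138 (43.5 per 1000), Lhx and Lmx genes 7 among 178 (39.3 per 1000), and Fox genes 6 among 786 (7.63 per 1000). Sox genes, a family that includes the pluripotency factor Sox2, held 2 members (at Sox1 and Sox2) among 442 eligible tiles, a rate of 4.52 per 1000 against 194 per 1000 for Gata genes.

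Near starts, the largest difference belonged to Ldb2, which encodes a cofactor of LIM homeodomain proteins. That tile read 61.0% and 64.9% in ASCs against 13.0% and 12.2% in ESCs, and 3.06% and 9.64% in EpiSCs. Nkx2-6, a gene of pharyngeal endoderm and heart, read 69.2% and 68.4% in ASCs against 18.7% and 20% in ESCs, and 14.7% and 20.8% in EpiSCs, with ESCs and EpiSCs overlapping. Tcf21, a regulator of mesoderm-derived connective tissue, read 47.5% and 50.5% in ASCs against 9.0% and 21% in ESCs, and 8.49% and 12.9% in EpiSCs. Dmrt2, a gene of the somites, read 42.7% and 37.2% in ASCs against 15.5% and 13.0% in ESCs, and 1.44% and 5.76% in EpiSCs.

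Of the other tiles near starts, the one at Bhlhe22, a factor of neuronal differentiation, read 52.5% and 53.4% in ASCs against 21.8% and 16.5% in ESCs, and 13.7% and 11.3% in EpiSCs. Lrrtm4, which encodes a synaptic adhesion protein, read 68.2% and 53.2% in ASCs against 20.99% and 19.5% in ESCs, and 15.2% and 10.8% in EpiSCs. Cacna1e, a voltage-gated calcium channel, read 74.1% and 72.2% in ASCs against 18.8% and 21.5% in ESCs, and 29.6% and 32.9% in EpiSCs. Here both EpiSC libraries exceeded both ESC libraries.

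Hlx, a homeobox gene of the visceral mesenchyme, had an intergenic member 14619 bp from its start with 75% and 75.8% in ASCs against 18.5% and 22.6% in ESCs, and 13.5% and 11.5% in EpiSCs. Zfp608 and Nfix held 4 members each. At Nfix, a factor of neural and muscle development, EpiSC means ranged from 9.88% to 20.3% and ASC means from 41.1% to 53.3%.

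Since ABCL medium supplies Activin A, BMP4 and an agonist of the Wnt pathway, the genes of these pathways were examined. BMP and Activin genes held 2 members, both at Smad1, among 1191 eligible tiles of 73 genes, a rate of 1.68 per 1000 against 1.02 of all eligible tiles. With tiles assigned to the nearest start, the list held 2 members among 3099 tiles, or 0.645 per 1000, so the direction turned. Smad1 transduces BMP signals, and the larger of its members lies in an intron, from 79384001 to 79386000 on chromosome 8. It differed by 63.2 points. Of the ligands and other genes in the Wnt list, Wnt11 and Wnt8b held 3 members among 1461 eligible tiles of 74 genes. That is 2.05 per 1000, and by nearest start the rate was 1.73. Wnt11, a ligand of the noncanonical pathway, had an intronic tile with 46.2% and 55.5% in ASCs against 22.7% and 25.9% in ESCs, and 6.90% and 1.94% in EpiSCs. Wnt8b, a ligand expressed in the forebrain, read 46.4% and 38.2% in ASCs against 14.3% and 13.6% in ESCs, and 13.9% and 12.4% in EpiSCs. FGF genes held 0 members among 1663 eligible tiles of 49 genes, and their median difference was -21.9 points. At the 1.02 per 1000 of all eligible tiles, few members would be found in a set of that size. By nearest start the FGF list held 3 members (Dusp4, Fgf8 and Flrt1) among 1867 tiles, or 1.61 per 1000.

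Genes of the primed epiblast, on a list of 37 genes, held 4 members among 347 eligible tiles. Lin28b, which blocks maturation of let-7 miRNAs, read 39.2% and 35.6% in ASCs against 6.90% and 16.2% in ESCs, and 2.25% and 2.56% in EpiSCs, with 58 to 89 reads. Lhx1, a gene of the head organizer, read 25.6% and 25.6% in ASCs against 9.96% and 4.52% in ESCs, and 3.64% and 4.52% in EpiSCs. Of 23 naive genes 1 held a member, Tbx3, which is also a lineage factor. Zfp genes held 5 members, at Zfp608 and Zfp629, among 3378 eligible tiles.

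The members called lower in EpiSCs than in ESCs included tiles at Vmn2r22 and Lhx9. Lhx9, a gene of gonad and limb development, had a tile of 75 CpG sites with 22.8% and 20.7% in ASCs against 22.4% and 21.4% in ESCs, and 0.855% and 0.585% in EpiSCs. ASCs and ESCs overlapped there, and the neighbouring tile of 85 CpG positions, outside the rule, read 29.4% and 40.9% in ASCs against 2.87% and 2.06% in EpiSCs. At Sim1, a factor of hypothalamic neurons, all 3 members were lower in EpiSCs than in ESCs, and the lowest read 34.9% and 32.5% in ASCs against 18.9% and 20.7% in ESCs, and 1.47% and 1.39% in EpiSCs.

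Some of the largest differences lay in repeated or multicopy sequence, where short reads may be assigned to the wrong copy. The tile with the largest difference of all, nearest to Mup8 of the major urinary protein cluster, read 83.3% and 84.4% in ASCs against 23.8% and 25.7% in ESCs, and 20% and 18.7% in EpiSCs. It shared 64.8% of its 31-base words with another member, nearest to Mup11, which read 72.5% and 68.7% in ASCs against 9.18% and 13.6% in EpiSCs at a relative depth of 0.998 and 0.492. Relative depth is the reads per CpG of a tile over the same library's value for all eligible tiles, averaged over the replicates. The member in an intron of Vmn2r22, a vomeronasal receptor gene, read 72.7% and 67.3% in ASCs against 31.1% and 28.2% in ESCs, and 4.0% and 7.02% in EpiSCs. In the genome used here 83.5% of that tile is soft-masked as repeats, and its relative depth was 0.593 in EpiSCs and 0.856 in ASCs. Members nearest to Cyp2j11, a cytochrome P450 gene, and AW209491 were 83.2% and 85.1% soft-masked and differed by 60.0 and 58.0 points. In all, 17 members shared 100 or more 31-base words with another member, 4 of them nearest to Mup genes. Without these 17, the medians of the remaining 425 were 54.2% and 54.9% in ASCs against 15.5% and 15.5% in ESCs, and 22.3% and 21.2% in EpiSCs, and the largest difference was 63.2 points. More than 50% of the tile was soft-masked in 20 members (4.52%), against 6.59% of eligible tiles.

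A relative depth under 0.5 or over 2 was found in 3.39% of members in EpiSCs and in 2.04% in ASCs, against 2.11% and 1.25% of eligible tiles. The relative depth of ASCs and EpiSCs differed by more than 1.5 times in either direction in 27 members (6.11%), against 5.43% of eligible tiles. CpG sites not listed in a library made up 0.977% in ASCs, 1.04% in EpiSCs and 0.981% in ESCs, against 1.05%, 1.36% and 1.06% in eligible tiles. Whether sequence differences between the lines contributed to single tiles was not tested.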

How the data were processed

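Genomic DNA of ASCs, ESCs and EpiSCs (2 libraries each) was profiled by post-bisulfite adaptor tagging, in which adaptors are added after bisulfite has turned unmethylated cytosine into uracil. According to the study and the submitters' processing notes, reads were trimmed with Trim Galore, aligned to GRCm38 with Bismark 0.16.3, freed of duplicates and summarised per CpG with MethPipe (version not stated in the labels or methods). For each CpG, with both strands merged, the deposited files hold the methylation level as a fraction of reads, and the authors also deposited the coverage as a raw read count with no normalization. The read length is stated differently in the labels and the methods. Uneven conversion or mapping would change levels, and spike-in reads were not used here.

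Methylated reads (level times coverage, rounded) and reads were summed in 2 kb tiles with at least 40 reads in every library. A quasi-binomial model per tile on all 6 libraries, with dispersion moderated by limma 3.58.1 (R 4.3.3) and Benjamini-Hochberg adjustment over 445422 tiles of chromosomes 1 to 19 and X, gave each adjusted p. The model was also run on simulated data, with the outcome not reported here. Gene positions are from GENCODE on GRCm38 and the genome from RefSeq GRCm38.p6. The members and the gene lists were chosen with earlier results of these data known. Named tiles were, by the difference between ASCs and EpiSCs, the 10 largest (1 per run), the 10 largest within 1 kb of a start, the 3 largest of 5 gene lists, the 3 longest runs, the 5 lowest in EpiSCs against ESCs and the 3 on each side of the threshold. Gata4, Nfix, Zfp608 and the gene families were added after their values were seen. Some named tiles are not reported here. Flanking tiles were judged by adjusted p alone. Alternatives were other read minimums, tile offsets and site weights, limma on M values, Fisher's exact test, a replicate block and leaving out each library.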

Additional observations from a re-analysis of the deposited data

How the results depend on the processing

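The number of members ranged from 397 to 608 over the read minimum, tile offset, site weighting, density limit and common sites, except that a minimum of 100 reads left 199 members (1.79 per 1000 eligible tiles against 1.02), with an ESC median of 14.9%. Leaving out 1 ASC or EpiSC library gave 456 to 507. In EpiSCs against ESCs, adjusted p alone put 190 members higher and 63 lower, and with the 20 points also asked, leaving out libraries gave 3 to 5 lower, with 5 without ESC replicate 1. Flanking tiles 2 steps away were higher in 13.0%. By nearest start 136 members belonged to lineage factors, but among 9801 eligible tiles, so the rate fell from 34.7 to 13.9 per 1000. Within 2 kb of a start lay 17.6% of members. In the fit with the replicate block the counts called stayed at 442, 85, 3 and 412. The replicate differences of 2 groups correlated across tiles at -0.00583 to 0.00212, and the main model did not pair samples by replicate number. Counting error in single tiles can hide such a correlation. Whether libraries with the same number were handled together was not tested. Of 396 values for 36 single tiles, 5 lost their call, all with 1 library left out, and 0 reversed. Among them were Nkx3-2 (13.6 points without ASC replicate 2) and Lhx9 (19.97 without ASC replicate 1). The alternative without sites marked as mutated was not run, since the files mark none. At 92 reads, the median of the library with the fewest, a level of 50% has an interval of 39.99% to 60.01%.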

Other observations

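Beyond the named genes, 3 CpG-dense tiles and 1 tile of the X chromosome fell outside the rule but were higher in ASCs than in EpiSCs by 20 points or more. The densest, with 114 CpG positions, was nearest to Rgcc, a regulator of the cell cycle, and read 35.7% and 43.2% in ASCs against 15.6% and 14.6% in ESCs, and 9.52% and 8.73% in EpiSCs. The tile of the X chromosome, nearest to the homeobox gene Esx1 of the placenta, read 59.8% and 55.8% in ASCs against 24.2% and 14.0% in ESCs, and 42.6% and 32.1% in EpiSCs. The other 2 lay beside members at Lhx9 and Gata4.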
